A study of Homo sapiens with 3 samples.

Results

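The MYC, MAX and MXD network was taken as 9 genes, chosen by their symbols: MYC, MAX, MXD1, MXD3, MXD4, MXI1, MNT, MLX and MLXIP. All 9 were among the 31907 rows of the expression table, and all 9 passed the filter of a mean of at least 1 TPM (a share of all transcripts, corrected for transcript length) that left 14427 genes for testing. The RNA came from a human cell line of gastric cancer, NCI-N87, and every library came from cells transfected with Lipofectamine 2000. Of the 3 libraries, 2 came from knockdown cells given different siRNAs against the forkhead factor FOXP4, called siRNA1 and siRNA2, and 1 came from cells of wild-type genotype given a scrambled siRNA. The siRNAs are 2 reagents and not repeats of 1 treatment, the control had no replicate, and the time after transfection was not given in the sources used here. Nothing in the labels says that the libraries came from separate cultures.

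MYC is a transcription factor of cell growth that binds DNA only as a dimer with MAX, at sites called E-boxes. The MXD proteins, MXI1 and MNT compete with MYC for MAX and recruit SIN3 and histone deacetylase corepressors to the same sites, so the balance of partners is known to set the output of MYC targets. MXD1 is known as a member that comes up when epithelial and blood cells stop dividing and differentiate. MLX, a relative of MAX, pairs with the glucose-sensing factor MLXIP (also called MondoA) and drives TXNIP, an inhibitor of thioredoxin and of glucose uptake.

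Reads on genes matched to the annotation were close in number between libraries. They came to about 18300000 with siRNA1, 18800000 with siRNA2 and 18100000 with the scrambled siRNA, estimated from the smallest steps in the TPM values. FOXP4 measured 51.6 TPM with siRNA1 and 36.7 TPM with siRNA2, against 93.9 TPM with the scrambled siRNA, or 55.0% and 39.0% of the control level. The median log2 fold of all genes tested was 0.03 with siRNA1 and -0.24 with siRNA2. Folds with siRNA1 fell with GC content across genes (Spearman correlation -0.68 over 8578 genes, against -0.11 with siRNA2, where genes are not independent replicates). Folds with that trend removed are therefore also given for the 9 members, and for some other named genes where a direction turned or the size moved. A named gene given without such a fold may also have moved. Removing the trend takes out its level as well as its slope, so a shift common to all genes goes too. FOXP4, at 62.9% GC, had log2 folds of -0.85 with siRNA1 and -1.33 with siRNA2 as deposited, and of -0.20 and -1.02 with the trend removed. All 12 epithelial and NCI-N87 markers reached 1 TPM in at least 1 library, but not evenly. TFF2 measured 1.06 TPM with siRNA1 and 0.780 TPM with siRNA2, against 0.768 TPM with the scrambled siRNA. CDH1 measured 5.86 and 11.6 TPM, against 4.16 TPM, beside 1150 and 813 TPM, against 1136 TPM, for EPCAM. ERBB2, which is known to be amplified and highly expressed in this line, measured only 58.9 TPM with siRNA1 and 63.9 TPM with siRNA2, against 89.8 TPM with the scrambled siRNA, which is low for that label. Its neighbour GRB7 measured 80.5 and 102 TPM, against 60.4 TPM, beside 1025 and 1930 TPM, against 1733 TPM, for the keratin KRT8. Of the haematopoietic markers 6 of 10 were in the table, with summed levels of 1.40 TPM with siRNA1, 0.927 TPM with siRNA2 and 0.455 TPM with the scrambled siRNA, and CD14, CD68 and NKG7 were listed at 0. Of the fibroblast and endothelial markers 9 of 10 were in the table, with sums of 7.10, 22.8 and 13.9 TPM in the same order, of which COL1A1 made up 6.42, 22.3 and 13.1 TPM and DCN, LUM, COL1A2 and CDH5 none. The 4 neuroendocrine markers in the table summed to under 1 TPM in every library.

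MXD1 was far higher with both siRNAs, MXD4 and MXD3 were lower with both, and MYC was lower with both by a smaller margin. The other members lay closer to the control. By size, 1 member, MXD1, was at least 2-fold higher with both siRNAs on the log2(TPM + 1) scale, where 2.52% of all genes tested were. With both siRNAs 2 members, MXD3 and MXD4, were at least 2-fold lower, where 2.38% of all genes were. At 1.5-fold the counts were the same, 1 higher (6.45% of all genes) and 2 lower (9.18%). Both folds of a gene share the same scrambled library.

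In limma, fitted over all 14427 genes with the spread between the siRNAs as the error, 0 members and 0 genes (0%) passed an adjusted p of 0.05. Before adjustment 428 of the 14427 genes lay below 0.05 in limma, with MXD1 and MXD4 the 2 members among them. With 1 residual degree of freedom, and the lone control assumed to vary like the siRNA libraries, this test has little power. The smallest adjusted p over all genes was 0.9999.

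**Figure D1:**
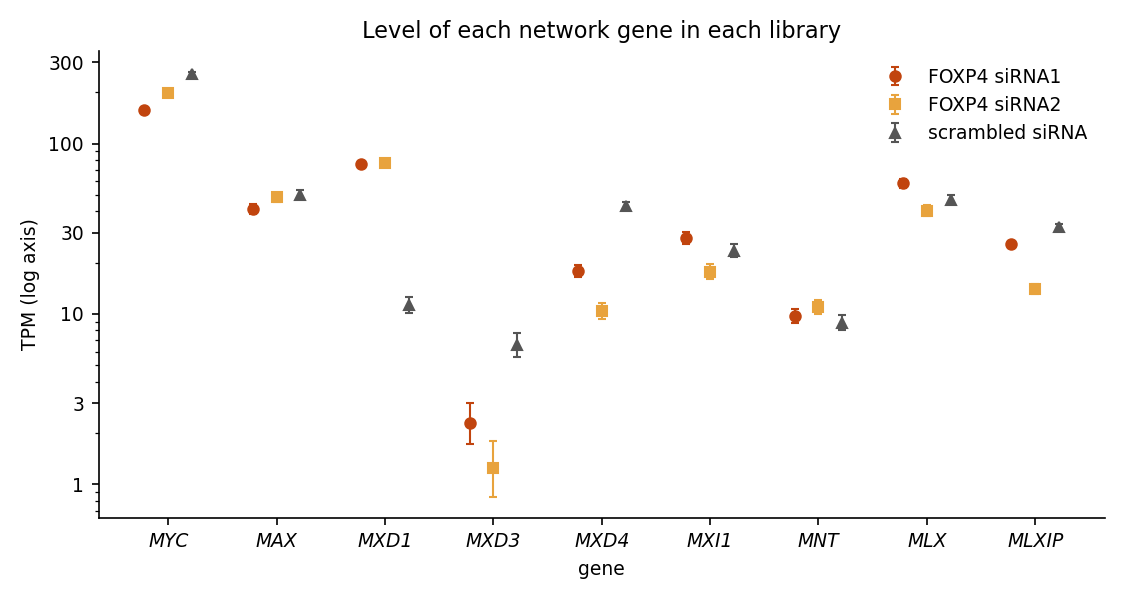
TPM (log axis) of the 9 network genes in the library with FOXP4 siRNA1, the library with FOXP4 siRNA2 and the library with the scrambled siRNA. Bars are 95% Poisson intervals of the estimated reads and cover counting error alone. MXD1 stands at 76.0 and 76.6 TPM with the siRNAs, against 11.3 TPM with the scrambled siRNA, while MXD4 and MXD3 stand below the control.

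MXD1 (ENSG00000059728.10, chromosome 2, 69897688 to 69942945, plus strand; GRCh38 here and below) measured 76.0 TPM with siRNA1 and 76.6 TPM with siRNA2, against 11.3 TPM with the scrambled siRNA. The siRNA libraries were thus alike and both far above the control. These values rested on about 2199, 2252 and 338 estimated reads. The ratio to the control was 6.73 with siRNA1 (95% exact interval of the counts 5.99 to 7.56) and 6.77 with siRNA2 (6.03 to 7.61), and such intervals cover counting error only. In log2(TPM + 1) this came to 2.65 with siRNA1 and 2.66 with siRNA2 (mean 2.65 ± 0.007, SD, n = 2). The change did not pass limma over the 14427 genes (adjusted p = 0.9999). It passed among the 9127 genes averaging 10 TPM or more (adjusted p = 0.00106), where 93 genes were called (1.02%, of which 0.92% higher and 0.0986% lower) and 1 of the 7 members tested. With the mitochondrially encoded genes left out 0.0754% of genes and 0 members were called. It also passed among 10847 protein-coding genes (adjusted p = 0.00183), where 0.848% of genes were called. The fits that called it set each error by expression level alone, and the adjusted p under the other settings ran up to 0.99999. After removal of the GC trend the log2 folds were 2.35 with siRNA1 and 2.84 with siRNA2.

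MXD4 (ENSG00000123933.16, chromosome 4, 2247432 to 2262294, minus strand), a member known from differentiating cells, measured 17.9 TPM with siRNA1 and 10.4 TPM with siRNA2, against 43.3 TPM with the scrambled siRNA. Both siRNA libraries lay below the control, siRNA2 the lower of the pair. The ratio to the control was 0.414 with siRNA1 (0.375 to 0.456) and 0.240 with siRNA2 (0.212 to 0.270). Its log2 folds of -1.23 and -1.96 (mean -1.59 ± 0.52, SD, n = 2) did not pass limma (adjusted p = 0.9999).

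MXD3 (ENSG00000213347.10, chromosome 5, 177301461 to 177312757, minus strand), known in mouse as the member expressed in S phase, was the least abundant of the 9 in every library. It measured 2.30 TPM with siRNA1 and 1.26 TPM with siRNA2, against 6.59 TPM with the scrambled siRNA, on about 54, 30 and 160 estimated reads. The order of the libraries was that of MXD4. The ratio was 0.349 with siRNA1 (0.251 to 0.478) and 0.190 with siRNA2 (0.124 to 0.283), and the log2 folds of -1.20 and -1.75 did not pass limma (adjusted p = 0.9999). Of its exonic bases, 22.5% overlap PRELID1 on the opposite strand and 18.0% overlap RAB24 on the same strand, and whether the counting used strand was not given in the sources used here. PRELID1 measured 50.5 TPM with siRNA1 and 110 TPM with siRNA2, against 155 TPM with the scrambled siRNA, and its part in the MXD3 values was not tested.

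Both lower members are GC-rich, at 57.6% for MXD4 and 61.3% for MXD3, against 42.7% for MXD1. After removal of the GC trend the log2 folds with siRNA1 were -0.86 for MXD4 and -0.64 for MXD3, and those with siRNA2 were -1.65 and -1.44. Both genes stayed below the control with both siRNAs, but 0 members were then at least 2-fold lower with both, where 0.952% of all genes were. With a pseudocount of 5, MXD4 was the 1 member at least 2-fold lower.

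The 250 bases upstream of the RefSeq starts of the 3 members past 2-fold, and of TXNIP, are shown as the starts of the members that moved most and of the known target of MLX dimers. Coordinates are GRCh38.p14, from the RefSeq promoter table, and the sequences run 5′ to 3′ on the gene's strand. MXD1 is chr2:69914859-69915108 on the plus strand, MXD4 is chr4:2262110-2262359 on the minus strand, MXD3 is chr5:177312753-177313002 on the minus strand and TXNIP is chr1:145996580-145996829 on the minus strand. Capitals mark the matches found.
MXD1: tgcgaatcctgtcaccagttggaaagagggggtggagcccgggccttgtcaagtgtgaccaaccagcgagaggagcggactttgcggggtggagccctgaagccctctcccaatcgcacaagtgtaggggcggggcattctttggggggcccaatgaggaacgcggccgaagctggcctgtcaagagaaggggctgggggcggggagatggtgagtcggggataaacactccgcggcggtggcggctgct
MXD4: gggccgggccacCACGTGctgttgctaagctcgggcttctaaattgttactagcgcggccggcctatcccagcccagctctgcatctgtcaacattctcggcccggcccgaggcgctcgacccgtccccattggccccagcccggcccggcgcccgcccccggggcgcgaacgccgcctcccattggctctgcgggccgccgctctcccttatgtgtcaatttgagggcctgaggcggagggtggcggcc
MXD3: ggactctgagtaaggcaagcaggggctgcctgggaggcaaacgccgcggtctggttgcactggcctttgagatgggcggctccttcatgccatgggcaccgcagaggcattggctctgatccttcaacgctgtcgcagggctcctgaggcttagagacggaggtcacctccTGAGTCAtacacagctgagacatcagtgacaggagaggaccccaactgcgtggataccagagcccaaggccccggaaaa
TXNIP: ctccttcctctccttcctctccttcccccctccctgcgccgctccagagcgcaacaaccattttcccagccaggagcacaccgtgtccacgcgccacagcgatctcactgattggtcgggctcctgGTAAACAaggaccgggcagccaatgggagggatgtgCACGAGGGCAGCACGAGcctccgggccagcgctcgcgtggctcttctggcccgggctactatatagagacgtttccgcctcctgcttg

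Windows were searched on both strands for the E-box CACGTG bound by MYC and MXD dimers with MAX, the forkhead core GTAAACA, the AP-1 site TGANTCA, the cyclic AMP response element TGACGTCA and the paired E-box, a pair of CACGNG sites 5 bases apart, the form bound by MLX heterodimers. The paired form can hold the E-box. The window of MXD4 held 1 E-box, 238 to 233 bases before the start, and that of MXD3 held 1 AP-1 match, 79 to 73 bases before it. MXD1 held none of the 5. Its window lies inside the gene span given above, so the bases upstream of 69897688 were not searched. Other forms of these sites were not searched in any window. TXNIP held the forkhead core 124 to 118 bases before the start and the paired E-box 88 to 72 bases before it, while a second listed TXNIP window, chr1:145995745-145995994, held none of the 5. Of the 11 windows listed for the 8 members other than MYC, 3 held the E-box (those of MXD4, MNT and MLX), where 6.35% of all 35116 promoter windows did. The forkhead core stood in 1, an alternative start of MXI1, where 2.98% of all windows held it. The AP-1 site is in 6.57% of all windows, the cyclic AMP element, found in that of MLXIP, in 1.65%, and the paired E-box in 0.0456%. A match is a run of letters, not a bound site.

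MYC (ENSG00000136997.17, chromosome 8, 127735434 to 127741434, plus strand) was the most abundant member in every library, at 156 TPM with siRNA1 and 197 TPM with siRNA2, against 254 TPM with the scrambled siRNA. The ratio to the control was 0.615 with siRNA1 (0.582 to 0.649) and 0.773 with siRNA2 (0.735 to 0.813), so both siRNA libraries lay below the control by more than counting error. Its log2 folds of -0.70 and -0.37 (mean -0.53 ± 0.23, SD, n = 2) did not pass limma (adjusted p = 0.9999). With siRNA2 that fold stands beside a median of -0.24 over all genes. Without the GC trend the folds were -0.49 and -0.07, and with median-of-ratios rescaling -0.71 and -0.09. In bulk RNA, fewer cells that express a gene and less RNA per cell cannot be told apart.

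MAX (ENSG00000125952.18, chromosome 14), the shared partner, measured 41.5 TPM with siRNA1 and 48.4 TPM with siRNA2, against 50.1 TPM with the scrambled siRNA. Its interval with siRNA2 spanned the control level (ratio 0.967, 0.886 to 1.06), and its log2 fold with siRNA1 was -0.27 as deposited and -0.17 with the GC trend removed. Its siRNA2 fold of -0.05 turned positive with median-of-ratios rescaling (0.23), quantile normalization (0.11) or the GC trend removed (0.22). MNT (ENSG00000070444.14, chromosome 17), the widely expressed antagonist, measured 9.73 TPM with siRNA1 and 10.9 TPM with siRNA2, against 8.88 TPM with the scrambled siRNA. Its GC content is 61.4%, and its log2 folds of 0.12 and 0.27 came to 0.69 and 0.58 with the GC trend removed. With median-of-ratios rescaling the siRNA2 fold was 0.53. An antisense transcript covers 12.2% of the MNT exonic bases. MXI1 (ENSG00000119950.20, chromosome 10), another MXD-type antagonist, was split, at 27.8 TPM with siRNA1 and 17.7 TPM with siRNA2, against 23.5 TPM with the scrambled siRNA. Its log2 folds of 0.24 and -0.39 came to -0.02 and -0.20 without the GC trend, so the siRNA1 direction turned and the split was lost. None of these 3 passed limma (adjusted p = 0.9999 each).

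MLX (ENSG00000108788.11, chromosome 17) was also split, at 58.3 TPM with siRNA1 and 40.4 TPM with siRNA2, against 46.8 TPM with the scrambled siRNA. Its log2 folds of 0.31 and -0.21 came to 0.43 and 0.07 without the GC trend, and to 0.30 and 0.06 with median-of-ratios rescaling, so the siRNA2 direction turned and the split was lost. Its partner MLXIP (ENSG00000175727.13, chromosome 12) measured 25.7 TPM with siRNA1 and 14.1 TPM with siRNA2, against 32.3 TPM with the scrambled siRNA. MLXIP thus lay below the control with both siRNAs, with log2 folds of -0.32 and -1.14 and an adjusted p of 0.9999 in limma. With the GC trend removed the siRNA1 fold of MLXIP was 0.07, so its direction with siRNA1 turned, while the siRNA2 fold was -0.83. The MLXIP to MLX ratio of TPM was 0.441 with siRNA1 and 0.348 with siRNA2, against 0.689 with the scrambled siRNA. Of the MLX exonic bases 18.1% overlap PSMC3IP on the opposite strand.

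With siRNA1 alone 2 members were at least 2-fold lower, where 6% of all genes were, and with siRNA2 alone 3 were (MXD3, MXD4 and MLXIP), where 13.2% were. At 1.5-fold, 3 members were lower with siRNA1 (17% of all genes) and 3 with siRNA2 (29.7%). MXD1 was the 1 member at least 2-fold higher with either, where 5.27% of genes were with siRNA1 and 6.88% with siRNA2. No member differed 2-fold between siRNA2 and siRNA1, where 5.99% of all genes were higher and 12.8% lower with siRNA2. The widest gap was that of MLXIP, -0.82 on the log2 scale as siRNA2 minus siRNA1, and the narrowest was that of MXD1, at 0.009.

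**Figure D2:**
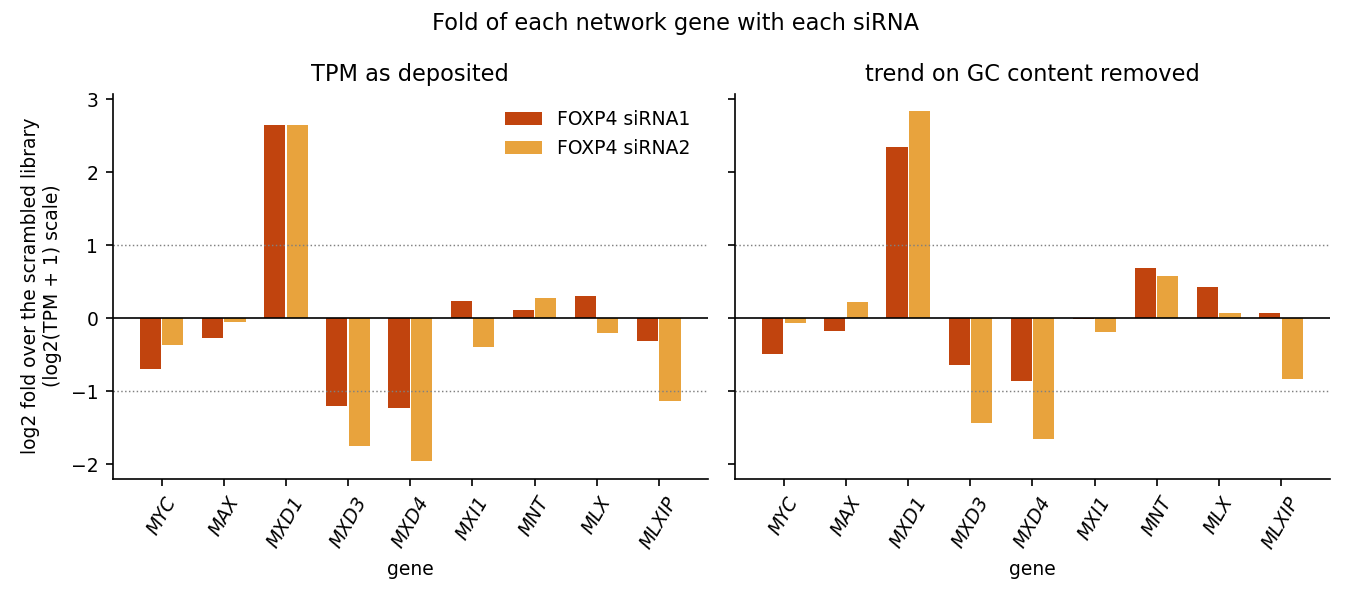
Log2 folds over the scrambled library, on the log2(TPM + 1) scale, of each network gene with FOXP4 siRNA1 and FOXP4 siRNA2, as deposited (left) and with the trend on GC content removed (right). Dotted lines mark 2-fold. MXD1 stays above 2 on this scale in all 4 bars, while the siRNA1 bars of MXD3 and MXD4 shorten to -0.64 and -0.86 on the right.

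The order of levels changed within the network. With siRNA1 the order was MYC, MXD1, MLX, MAX, MXI1, MLXIP, MXD4, MNT and MXD3, and with siRNA2 it was MYC, MXD1, MAX, MLX, MXI1, MLXIP, MNT, MXD4 and MXD3. With the scrambled siRNA it was MYC, MAX, MLX, MXD4, MLXIP, MXI1, MXD1, MNT and MXD3. MXD1 stood at rank 2 in both siRNA libraries and at rank 7 in the control, and MXD4 at ranks 7 and 8 in the siRNA libraries and at rank 4 in the control. Counting intervals of neighbours overlapped for MXI1 and MLXIP with siRNA1, for MNT and MXD4 with siRNA2, and for MAX with MLX and MLX with MXD4 with the scrambled siRNA. With 1 library each, no wider error could be set on the order.

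MXD1 replaced MXD4 as the leading transcript among the MXD-type genes. Of the summed TPM of MXD1, MXD3, MXD4 and MXI1, MXD1 made up 61.3% with siRNA1 and 72.3% with siRNA2, against 13.4% with the scrambled siRNA. The 5 antagonists, which are these 4 and MNT, summed to 134 TPM with siRNA1 and 117 TPM with siRNA2, against 93.5 TPM with the scrambled siRNA. Without MXD1 the sums were 57.8 and 40.2 TPM with the siRNAs, against 82.2 TPM with the scrambled siRNA, so the other antagonists together ran the other way.

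MYC stood at 1.17 times the antagonist sum with siRNA1 and 1.68 times with siRNA2, against 2.72 times with the scrambled siRNA. On the log2 scale this ratio changed by -1.22 and -0.69, a mean of -0.96 ± 0.37 (SD, n = 2). Without the GC trend the changes were -0.92 and -0.61. With MXD1 left out of the sum the changes were -0.19 and 0.66, so the lower ratio with siRNA2 turned. Among the 6 partners of MAX, MYC made up 53.9% of TPM with siRNA1 and 62.7% with siRNA2, against 73.1% with the scrambled siRNA, and MXD1 made up 26.2% and 24.4%, against 3.25%. The partners together came to 6.996 times the MAX level with siRNA1 and 6.47 times with siRNA2, against 6.95 times with the scrambled siRNA. These are shares of transcripts and say nothing of protein.

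**Figure D3:**
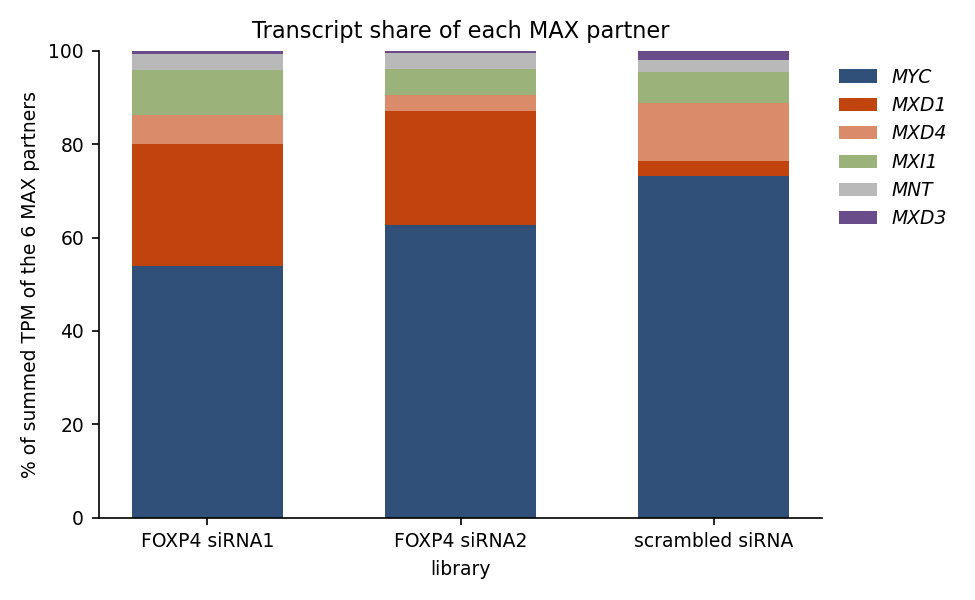
Share of each of the 6 MAX partners in their summed TPM, in %, for the libraries with FOXP4 siRNA1, FOXP4 siRNA2 and the scrambled siRNA. The MXD1 band fills 26.2% and 24.4% of the siRNA bars and 3.25% of the scrambled bar, and the MYC band is shorter in both siRNA bars.

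Of 10 other genes of the extended network tested, 3 were higher with both siRNAs, 6 lower and 1 split, where 24.6% of all genes were higher with both, 38.1% lower and 37.4% split, and 0 passed limma over the 14427 genes. MYCN, the MYC paralog of neural tissue and some tumours, measured 3.80 TPM with siRNA1 and 1.58 TPM with siRNA2, against 15.0 TPM with the scrambled siRNA. Its log2 folds of -1.74 and -2.64 came to -1.40 and -2.33 with the GC trend removed. MYCL measured 5.46 and 4.13 TPM with the siRNAs, against 7.93 TPM with the scrambled siRNA. Together MYC, MYCN and MYCL summed to 166 TPM with siRNA1 and 202 TPM with siRNA2, against 277 TPM with the scrambled siRNA.

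MLXIPL, the carbohydrate response factor that also pairs with MLX, measured 2.87 TPM with siRNA1 and 3.41 TPM with siRNA2, against 5.47 TPM with the scrambled siRNA. MGA, a large MAX partner that represses, measured 9.81 and 6.96 TPM, against 5.96 TPM with the scrambled siRNA. BHLHE40, a repressor that binds E-boxes, measured 273 TPM with siRNA1 and 418 TPM with siRNA2, against 76.8 TPM with the scrambled siRNA, and it passed limma among genes of at least 10 TPM (adjusted p = 0.0213) but not over the 14427 genes (adjusted p = 0.9999). Both E-box activators, USF1 (55.6 and 41.4 TPM, against 82.3 TPM) and USF2 (115 and 157 TPM, against 175 TPM), were below the control with both siRNAs. The siRNA2 fold of USF2, -0.16 as deposited, turned with the GC trend removed (0.15) and with median-of-ratios rescaling (0.12). TFE3, a lysosomal gene activator, measured 71.1 and 101 TPM, against 61.4 TPM with the scrambled siRNA. Its relative TFEB was at 3.54 and 5.01 TPM, against 5.19 TPM, and MITF was at 1.43 and 0.810 TPM, against 1.27 TPM. Without the GC trend the siRNA2 fold of TFEB turned to 0.26 and the siRNA1 fold of MITF to -0.26. The siRNA1 fold of MLXIPL came to -0.05, against -0.74 as deposited. Median-of-ratios rescaling also turned the siRNA2 fold of TFEB, to 0.19.

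**Figure D4:**
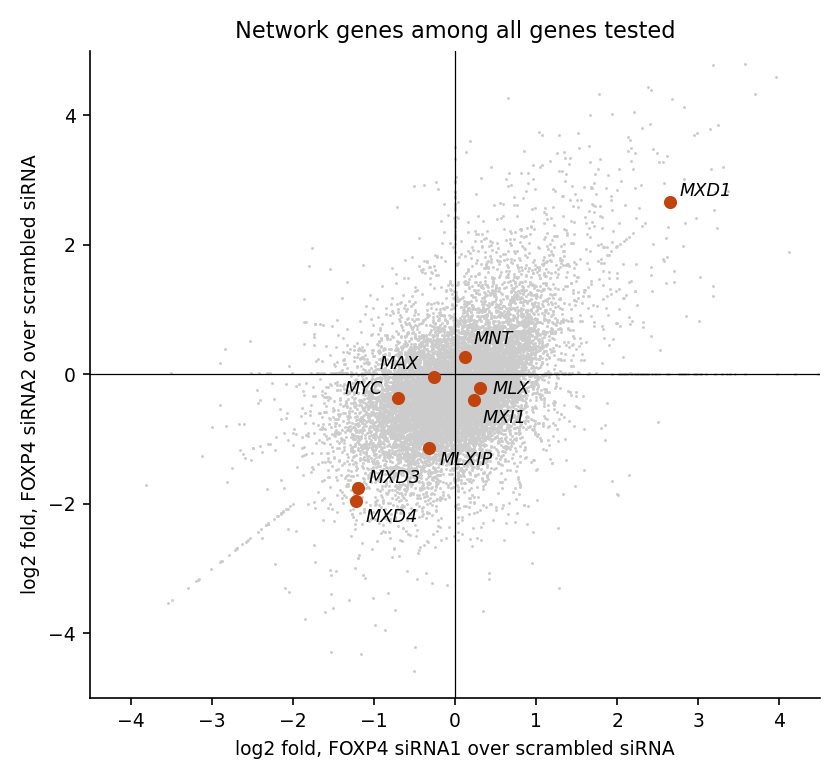
Log2 fold with FOXP4 siRNA1 (x axis) and FOXP4 siRNA2 (y axis) over the scrambled library, on the log2(TPM + 1) scale, for all 14427 genes tested (grey) and the 9 network genes (red). Both axes share the scrambled library, and 12 genes lie outside the plotted range. MXD1 sits at 2.65 and 2.66, while MXD3 and MXD4 sit below -1 on both axes.

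By distance between the pairs of folds, which rest on 3 libraries with a shared control, the genes nearest to MXD1 with a mean of at least 10 TPM were TXNIP, ARRDC3, DUSP6, RGS16 and CXCL1, at 0.315 to 0.440 log2 units. The genes nearest to MYC were ID1, HYAL2, PAFAH1B3, NLE1 and CC2D1A, at 0.010 to 0.022 log2 units as deposited. With the GC trend removed the siRNA1 fold of MYC was -0.49. Those of ID1 and NLE1 were then -0.29 and -0.41, and those of HYAL2 and PAFAH1B3 were -0.04 and -0.09. The siRNA1 fold of CC2D1A turned, from -0.71 to 0.04. DUSP6, a phosphatase that switches off ERK, measured 688 TPM with siRNA1 and 791 TPM with siRNA2, against 96.4 TPM with the scrambled siRNA. CXCL1, a neutrophil chemokine, measured 28.12 and 28.14 TPM, against 4.75 TPM. Like ARRDC3, it reached the mean of 10 TPM only through the siRNA libraries. ID1, an inhibitor of basic helix-loop-helix factors, measured 276 and 349 TPM, against 451 TPM. These distances are descriptions without a test.

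Targets of MLX heterodimers went both ways, with some far above the control. Of 16 tested, 7 were higher with both siRNAs, 4 lower with both and 5 split, where 24.6% of all genes were higher with both and 38.1% lower. The medians were 0.31 with siRNA1 and 0.30 with siRNA2, beside 0.03 and -0.24 over all genes, and 0 passed limma over the 14427 genes. TXNIP measured 1832 TPM with siRNA1 and 2397 TPM with siRNA2, against 307 TPM with the scrambled siRNA. ARRDC3, another alpha-arrestin, measured 49.8 and 33.5 TPM, against 5.47 TPM with the scrambled siRNA, and RGS16, a regulator of G-protein signalling, measured 634 and 976 TPM, against 128 TPM. TXNIP (adjusted p = 0.00843), ARRDC3 (adjusted p = 0.00458) and RGS16 (adjusted p = 0.00327) rose in limma among genes of at least 10 TPM. They were 3 of the 15 list genes tested at that level, where 0.92% of all genes were called higher. KLF10 was the other list gene at least 2-fold higher with both, at 257 and 244 TPM, against 73.3 TPM with the scrambled siRNA. In all, 4 of the 16 were at least 2-fold higher with both, where 2.52% of all genes were. ARRDC3 reached a mean of 10 TPM only through the siRNA libraries. This list and the other lists were chosen with earlier results of these data known, so their shares are descriptions. ARRDC4, named like KLF10 after its values were seen, measured 47.7 and 43.3 TPM, against 25.6 TPM. The 4 genes lower with both, also named after their values were seen, were FASN, ACACB, ACLY and G6PC3. Their log2 folds ran from -0.63 to -0.07. With the GC trend removed the siRNA1 fold of FASN turned to 0.44 and the siRNA2 fold of ACLY to 0.21.

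Genes that MYC is known to activate were more often lower than higher with both siRNAs, against 38.1% lower and 24.6% higher among all genes. Of 39 tested genes of growth and ribosome assembly, 22 (56.4%) were lower with both siRNAs and 4 higher, with medians of -0.06 with siRNA1 and -0.47 with siRNA2, beside 0.03 and -0.24 over all genes. RRS1, a ribosome assembly factor, was the 1 gene of these 39 at least 2-fold lower with both, where 2.38% of all genes were. It measured 21.9 and 19.5 TPM, against 59.5 TPM with the scrambled siRNA. MYBBP1A, a nucleolar protein, measured 33.6 and 30.9 TPM, against 62.6 TPM, and TBRG4, a mitochondrial RNA regulator, 56.8 and 34.2 TPM, against 77.5 TPM. Of 37 genes of metabolism and the cell cycle, 22 (59.5%) were lower with both and 8 higher, with medians of -0.21 and -0.35. SRM, the spermidine synthase, measured 66.0 TPM with siRNA1 and 114 TPM with siRNA2, against 179 TPM with the scrambled siRNA. Its siRNA1 fold was -1.43 as deposited and -0.72 with the GC trend removed. UNG, a DNA repair glycosylase, measured 48.4 and 30.9 TPM, against 78.9 TPM, and LDHA, lactate dehydrogenase A, 174 and 197 TPM, against 370 TPM with the scrambled siRNA. None of these genes passed limma over the 14427 genes or among genes of at least 10 TPM. With the GC trend removed the medians were -0.04 and -0.22 for growth genes and -0.14 and -0.16 for metabolism genes.

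Genes that MYC is known to repress were spread widely. This list too was chosen with earlier results of these data known, so its shares are descriptions. Of 19 tested, 9 (47.4%) were higher with both siRNAs, 4 (21.1%) lower and 6 split, where 24.6% of all genes were higher with both and 38.1% lower. The medians were 0.21 with siRNA1 and 0.68 with siRNA2, beside 0.03 and -0.24 over all genes. KLF6, CDKN2B, GADD45A and MIR22HG were at least 2-fold higher with both, where 2.52% of all genes were. CDKN2C, an inhibitor of CDK4 and CDK6, was at least 2-fold lower with both (6.75 and 1.82 TPM, against 16.1 TPM), where 2.38% of all genes were. MIR22HG, the host transcript of a microRNA, measured 24.0 and 29.6 TPM, against 11.5 TPM, and it and CDKN2C were named after their values were seen. CDKN2B, another such inhibitor and a textbook target of MYC repression, measured 92.7 and 147 TPM, against 19.2 TPM with the scrambled siRNA. The damage-response gene GADD45A measured 170 and 458 TPM, against 66.9 TPM. The zinc finger factor KLF6 measured 1007 and 1588 TPM, against 113 TPM. Among genes of at least 10 TPM, 13 of the list were tested and these 3 rose in limma (KLF6 adjusted p = 1.4e-05, CDKN2B adjusted p = 0.00129, GADD45A adjusted p = 0.0304). At that level 0.92% of all genes were called higher. Over the 14427 genes 0 of the list passed.

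**Figure D5:**
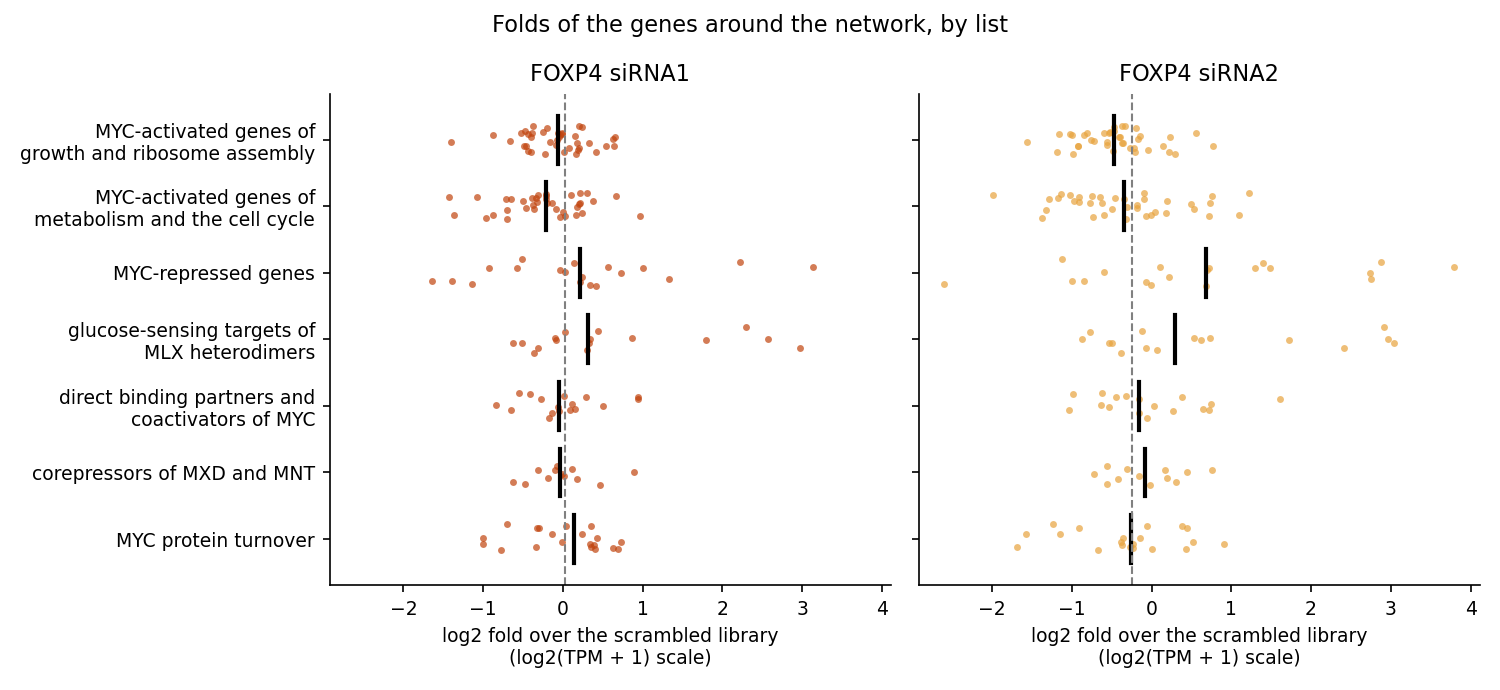
Log2 folds over the scrambled library, on the log2(TPM + 1) scale, of each tested gene (points) in 7 lists around the network, with FOXP4 siRNA1 (left) and FOXP4 siRNA2 (right). Black bars are list medians and the dashed line is the median of all genes tested, 0.03 with siRNA1 and -0.24 with siRNA2. Genes repressed by MYC and targets of MLX heterodimers have members far to the right, while the genes activated by MYC have medians left of the dashed line.

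Partners of the network proteins lay near the median of all genes, which was 0.03 with siRNA1 and -0.24 with siRNA2. In the 4 lists that follow, counts stand beside 24.6% of all genes higher with both siRNAs and 38.1% lower. Of 17 MYC binding partners and coactivators, 6 were higher with both siRNAs and 8 lower, with medians of -0.05 and -0.15. EP300, a histone acetyltransferase, measured 26.1 and 41.8 TPM, against 13.1 TPM with the scrambled siRNA, while KAT2A, another acetyltransferase, measured 36.8 and 27.9 TPM, against 58.3 TPM. RUVBL2, a helicase of chromatin complexes, measured 163 and 188 TPM, against 293 TPM with the scrambled siRNA. The siRNA1 fold of KAT2A was -0.65 as deposited and -0.17 without the GC trend. Of 12 corepressors of MXD and MNT, 1 was higher with both and 3 lower, with medians of -0.04 and -0.09. ARID4B was the higher one, at 45.4 and 33.1 TPM, against 24.1 TPM, and SAP30 (27.6 and 25.8 TPM, against 38.6 TPM) was among the lower. The histone-binding RBBP4 measured 60.5 and 36.4 TPM, against 60.9 TPM.

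Of 20 genes of MYC protein turnover, 5 were higher and 8 lower with both, shares close to those of all genes, with medians of 0.14 and -0.26. AURKA, a mitotic kinase known to stabilise MYCN, measured 174 and 67.7 TPM, against 220 TPM with the scrambled siRNA. FBXL14, a ubiquitin ligase subunit, measured 39.6 and 26.9 TPM, against 64.8 TPM, and PPP2R1A, a scaffold of phosphatase 2A, 183 and 197 TPM, against 314 TPM. Of 19 upstream regulators of MYC transcription, 6 were higher and 5 lower with both, with medians of 0.05 and -0.03. CDX2, an intestinal homeobox factor, measured 54.6 and 19.0 TPM, against 161 TPM, and fell in limma among genes of at least 10 TPM (adjusted p = 0.00824). MAZ, a zinc finger factor with 66.0% GC, measured 11.8 and 45.1 TPM, against 59.4 TPM, and AXIN2, a Wnt target, 155 and 68.6 TPM, against 239 TPM. The folds of MAZ, -2.23 and -0.39 as deposited, came to -1.39 and -0.05 without the GC trend. PVT1, the non-coding neighbour of MYC, named after its values were seen, measured 8.75 TPM with siRNA1 and 8.29 TPM with siRNA2, against 8.47 TPM with the scrambled siRNA, and its siRNA2 fold of -0.03 turned to 0.25 without the GC trend. No gene of these 4 lists passed limma over the 14427 genes.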

How the data were processed

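The authors deposited 1 table of TPM with 1 column per poly(A) library, matched to the samples by name. Per the submitters' processing notes the build was GRCh38. Which program and gene models made the values is not given in the sources used here. The columns share a fixed total, so values are relative within a library. The 13 mitochondrially encoded mRNAs took 8.05% of TPM with siRNA1, 1.41% with siRNA2 and 5.15% with the scrambled siRNA.

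Depth was read from TPM times exon length (GENCODE 29, matched by symbol for 22180 rows), which steps by 1 read: 92.2%, 92.6% and 92.7% of the low values with siRNA1, siRNA2 and the scrambled siRNA lay within 0.1 of a whole read, where 20% would by chance. Estimated reads give exact 95% intervals for counting error only. Tests ran on log2(TPM + 1), which understates the folds of weakly expressed genes, in limma 3.58.1 in R 4.3.3 (intensity trend, Benjamini-Hochberg adjustment over the genes averaging 1 TPM or more). Rows with a shared name were left out. The limma script and the depth script were tested on simulated data. The p-values reflect only how these libraries vary. The GC trend was a lowess curve (statsmodels 0.14.6) of each siRNA's fold on the GC content of the longest transcript, fitted on genes of at least 10 TPM. Motifs were searched in RefSeq promoter windows (GRCh38.p14).

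The members and lists were chosen with earlier results of these data known. Genes named were the members, the tested genes of the extended network, up to 3 genes of each other list with the largest mean fold among those of 10 TPM or more that moved the same way with both siRNAs, the 5 genes nearest to MYC and to MXD1, and FOXP4. Listed genes matched to no row by symbol, BOP1 among them, were not analysed here.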

Additional observations from a re-analysis of the deposited data

How the results depend on the processing

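Limma called 0 genes at the main settings. It called 93 among genes averaging 10 TPM or more, 92 with protein-coding genes only and 11 with mitochondrially encoded genes left out, and 1 member, MXD1, in the first and second of these. With pseudocounts of 0.1 or 5, no filter, median-of-ratios rescaling, quantile normalization, the GC trend removed or no intensity trend it called 0. MXD1 had mean log2 folds of 2.65 where it was called, and it was the 1 member at least 2-fold higher with both siRNAs under every setting tried. At least 2-fold lower with both were 2 members at the main settings, 1 with a pseudocount of 5, 1 at 10 TPM (where MXD3 was not tested) and 0 with the GC trend removed. With 1 siRNA library left out, 1 member was higher and 2 to 3 lower.

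Mean log2 folds near 0 changed sign: MAX to 0.026 with the GC trend removed, and MXI1 to 0.049 with median-of-ratios rescaling and 0.032 with quantile normalization. Leaving out 1 siRNA library left MXI1 at -0.39 to 0.24 and MLX at -0.21 to 0.31. The log2 change of the MYC to antagonist ratio was -1.22 to -0.69 with 1 siRNA library left out, and 0.23 with MXD1 left out of the sum, a setting added after seeing the data.

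List medians, averaged over the siRNAs, moved by more than their spread as follows. At 10 TPM the extended network came to 0.052, MYC-repressed genes to 0.82 and MLX targets to 0.43. With the GC trend removed, the extended network came to -0.06, MYC partners to 0.23, metabolism genes to -0.15 and MLX targets to 0.44. With median-of-ratios rescaling, MYC partners came to 0.029, corepressors to 0.068, metabolism genes to -0.15, MLX targets to 0.43 and upstream regulators to 0.13. With quantile normalization, MYC partners came to 0.015 and MLX targets to 0.38, and with a pseudocount of 5 MLX targets came to 0.25. The causes were not tested. Median-of-ratios rescaling shifted the median of all genes by 0.24 with siRNA2, and quantile normalization by 0.20. No paired analysis was possible because the control is 1 library with no replicate number. Depth limits MXD3 most, at 30 estimated reads with siRNA2.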
